A study of Drosophila melanogaster with 12 samples.

Results

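Nascent RNA was compared between G3 and B2, a pair of upSET mutant lines of Drosophila melanogaster S2 cells that were made with guide RNAs against different targets in the same gene. The comparison used the 4 libraries that the labels assign to these lines, replicates 1 and 2 of each, out of 8 nascent RNA libraries and 12 samples in the series. The other 4 nascent RNA libraries came from parental S2 cells and from the mutant line A7, and the remaining samples, chromatin immunoprecipitation and input from embryos, were not used here. All 4 lines belong to S2-DRSC, a male, highly polyploid line derived from late embryos, and the control line is wild type. G3 carries a 67 bp deletion that removes 5' untranslated sequence and the start codon and reaches 10 bp into the coding sequence. B2 carries a 1 bp deletion that shifts the reading frame after 367 amino acids of wild-type sequence. A7, made with the same guide target as G3, carries 2 deletions of 7 bp near the start codon. Each mutant line grew from 1 sorted cell and is therefore 1 clone, so the effect of a lesion and the history of a clone cannot be told apart in any value below.

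UpSET is the fly relative of yeast Set3, a SET domain protein that works with histone deacetylases and keeps active and silent chromatin apart. Nascent RNA is the RNA still held by RNA polymerase II on chromatin, so its reads cover introns as well as exons and follow transcription more closely than messenger RNA does. S2 cells resemble embryonic hemocytes and, as male cells, rely on the MSL complex and the roX RNAs to raise transcription of the X chromosome.

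The guide targets are shown because they are the designed difference between the clones. Both lie in CG9007, the gene symbol under which the files list upSET, on chromosome arm 3L, and the bases in capitals are the protospacer adjacent motif that Cas9 needs beside its target.
Target 1 (G3 and A7, minus strand): aaccgagtcgtgactggacaTGG
Target 7 (B2, plus strand): acagcagatcagcctaccgcAGG
Each is 20 bases plus 3 bases of the motif. The study lists coordinates for both targets. These were not checked here, since no genome sequence of the files' build (dm3) was used.

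The sense tables held 10425243 and 5427807 counts for G3 and 8778879 and 4738785 for B2, within a range of 4738785 to 10902304 over the 8 libraries. A count of 3 corresponded to 0.283 to 0.642 CPM (the count scaled to 1e+06 counts in the library), and the antisense share of counts was 8.59% to 10.95%. Libraries with the same replicate number deviated together in all 6 pairs of lines. The number entered the fits as a block, except where a value is given as without it. Hemocyte-like markers summed to 14028 and 13196 CPM in G3 and to 17319 and 14275 CPM in B2, with He under 1 CPM in these 4 libraries. Ovarian soma markers summed to 1190 and 689 CPM in G3 against 651 and 200 CPM in B2, mostly from br, with Yp1 at 0 and Yp2 under 1 CPM. Germline markers summed to 22.9 to 35.8 CPM, glia markers to 31.9 to 43.1 CPM and fat body markers to 0.214 to 2.75 CPM in the 4 libraries. Muscle markers summed to 1651 and 1485 CPM in G3 and to 1299 and 1291 CPM in B2, with up and Act57B under 1 CPM, and epithelium markers to 1507 and 1419 CPM in G3 and to 3208 and 3011 CPM in B2, mostly from ap, with 3 of the 5 epithelium markers above 0 in log2 fold change. The part of these differences in the results below was not tested.

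Of 9612 genes with at least 1 CPM in at least 2 libraries, 370 differed between G3 and B2 at an adjusted p under 0.05 by edgeR's quasi-likelihood test with Benjamini-Hochberg adjustment, which is 3.85% of the genes tested. Of these, 187 were higher in G3 (1.95%) and 183 lower (1.90%). The larger differences leaned upward, since 109 of the higher genes and 63 of the lower genes differed by at least 1 on the log2 scale. The called genes had the same sign in both replicate series for 186 of the 187 and all 183, against 63.96% of all genes tested. Libraries of the clones did not overlap at 176 and 166 of them, against 37.1% of all genes tested. The same libraries gave the calls, so neither count is independent support for them. Without the replicate block 23 genes were called, 11 higher and 12 lower, and all 23 were among the 370. The count fell to 201 and 202 without replicate 1 or 2 of G3, and to 35 and 44 without replicate 1 or 2 of B2.

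**Figure D1:**
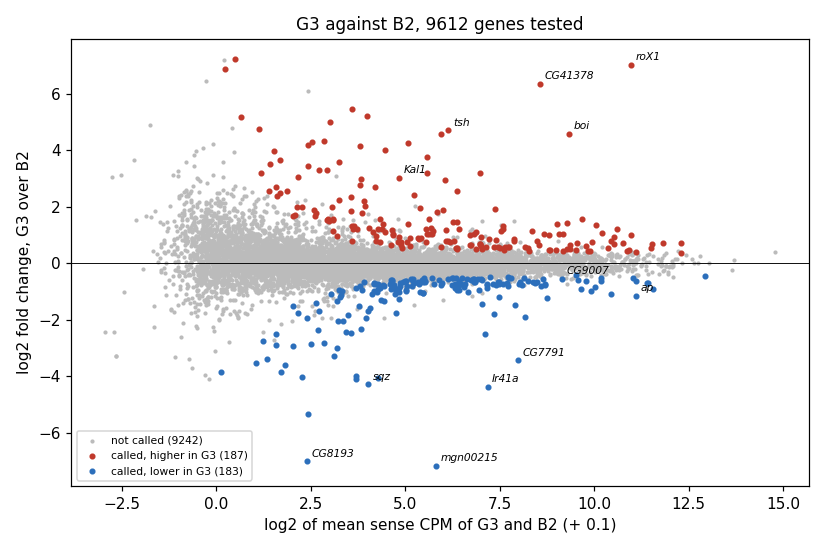
Each point is a gene, with the log2 of its mean sense CPM over G3 and B2 (plus 0.1) on the x axis and the fitted log2 fold change of G3 over B2 on the y axis. The 187 genes called higher in G3 (red) reach 7.24 and the 183 called lower (blue) reach -7.17 and genes in grey were not called.

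The edited gene itself was lower in G3. CG9007 (3L:13995223-14013251, dm3, 18029 bp) had 464 and 460 CPM in G3 and 664 and 679 CPM in B2. Parental S2 lay between them at 544 and 566 CPM, and A7 had 761 and 605 CPM. The G3 libraries were below the B2 libraries with no overlap, and the log2 fold change was -0.54 (SE 0.12, edgeR adjusted p = 0.0398), which did not pass without the replicate block (adjusted p = 0.233). Nascent RNA of the gene was thus counted in both clones, and these counts do not measure the protein. Within 250 kb of CG9007, 4 of 33 genes were called (12.1%, against 3.85% of all genes tested). The cysteine protease gene 26-29-p, ssp2 and nuf, which encodes a recycling endosome protein, were lower in G3, by 0.99, 0.73 and 1.19 on the log2 scale (log2 fold changes of -0.99, -0.73 and -1.19). CG13737 was higher, by 1.80, but stood above 1 CPM only in replicate 1 of each clone (18.7 CPM in G3, 5.42 CPM in B2). None of the 4 was called without the replicate block.

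The largest increase among genes with at least 5 CPM was that of roX1, a noncoding RNA of the male X chromosome that acts with the MSL complex. It had 3861 and 4168 CPM in G3 and 15.1 and 49.2 CPM in B2. Parental S2 was as low as B2, at 15.2 and 13.6 CPM, and A7 stood between, at 316 and 145 CPM. The log2 fold change was 7.04 (SE 0.58, adjusted p = 0.000539). Its partner roX2 had 88.8 and 112 CPM in G3 against 107 and 197 CPM in B2, which overlapped, and was not called (log2 fold change -0.53, SE 0.17, adjusted p = 0.143). The genes of the protein subunits msl-1, msl-2, msl-3, mle and mof had log2 fold changes between -0.15 and 0.22 and none was called. CG1832, which encodes the X-targeting factor Clamp, had 85.1 and 91.2 CPM in G3 and 84.8 and 106 CPM in B2.

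Several other genes were low in B2 and high in G3. CG41378, on the assembled heterochromatin of 2R (2RHet:1545386-1621672, dm3), had 683 and 809 CPM in G3 against 5.07 and 14.8 CPM in B2. A7 also had high levels of it, at 431 and 592 CPM, and S2 had 17.96 and 3.70 CPM. Its log2 fold change was 6.35 (SE 0.60, adjusted p = 0.00102). The gene boi, which encodes a cell surface receptor of Hedgehog, had 1579 and 890 CPM in G3 and 52.1 and 46.4 CPM in B2. Here too A7 was high, at 2737 and 2358 CPM, and the log2 fold change was 4.60 (SE 0.27, adjusted p = 0.000103). The trunk homeotic gene tsh had 181 and 90.3 CPM in G3 and 4.83 and 5.77 CPM in B2, a log2 fold change of 4.71 (SE 0.45, adjusted p = 0.00102). In none of these genes did the G3 and B2 libraries overlap, and A7 stood with G3 for all of them.

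Octbeta2R, an octopamine receptor gene, behaved differently across the mutants. It had 169 and 68.1 CPM in G3, 5.42 and 4.71 CPM in B2, 12.2 and 3.00 CPM in S2 and 11.6 and 5.68 CPM in A7, so that G3 alone of the 4 lines was high. Its log2 fold change against B2 was 4.58 (SE 0.27, adjusted p = 0.000103). The receptor tyrosine kinase gene Alk was much lower throughout, with 10.9 and 20.0 CPM in G3 and 0.471 and 0.428 CPM in B2. The rest of the 10 highest, CG12512 (an acyl-CoA synthetase family gene), CG31601, CG5973 and CG42596 (dpr21, an immunoglobulin superfamily gene), had 8.54 to 39.1 CPM in G3 libraries and 0 to 1.497 CPM in B2 libraries. In B2 they rested on 6 to 11 counts each, and their log2 fold changes were 4.31 to 5.46. Kal1, the fly relative of the Kallmann syndrome cell adhesion gene, was among the 5 genes with the lowest adjusted p, with 54.0 and 47.6 CPM in G3 and 7.31 and 4.71 CPM in B2 (log2 fold change 3.04, SE 0.17, adjusted p = 6.76e-05). Of the 10 highest genes, roX1, CG41378, tsh and boi also passed without the replicate block.

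**Figure D2:**
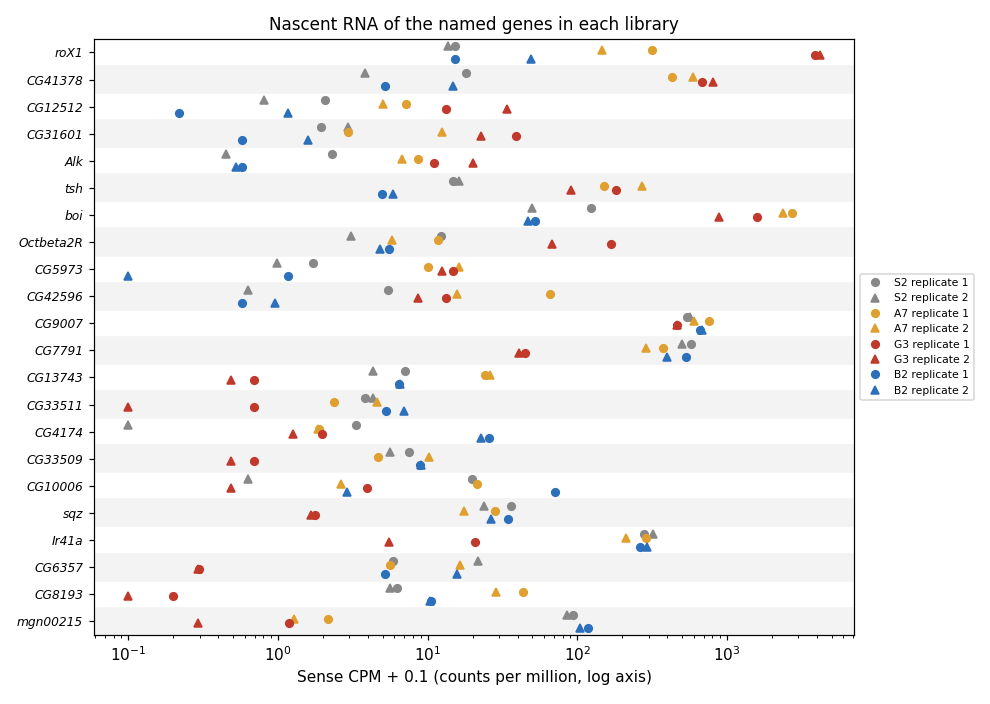
Sense CPM plus 0.1 on a log axis for the 10 highest and 10 lowest called genes, CG9007 and mgn00215, with a circle for replicate 1 and a triangle for replicate 2 of each line. From roX1 to CG42596 the G3 libraries lie to the right of the B2 libraries, and from CG7791 to mgn00215 they lie to the left of them except for CG10006, where the libraries overlap (3.83 and 0.388 CPM against 70.7 and 2.78 CPM).

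Among the genes lower in G3, mgn00215 had the largest difference. This is an unnamed gene model on the X chromosome (X:20928131-20932993, dm3) that overlaps bves, and it had 1.08 and 0.194 CPM in G3 against 117 and 104 CPM in B2. S2 was at the level of B2, at 93.3 and 84.8 CPM, whereas A7 was at that of G3, at 2.08 and 1.18 CPM. The log2 fold change was -7.17 (SE 0.27, adjusted p = 5.78e-06). The overlapping bves, a gene of a popeye domain membrane protein, moved the other way, at 149 and 158 CPM in G3 and 97.6 and 105 CPM in B2 (log2 fold change 0.60, SE 0.11, adjusted p = 0.0231). On the antisense strand bves was called lower in G3, with 152 and 91.5 antisense CPM in G3 and 1699 and 1901 in B2 (log2 fold change -3.84), the direction of the sense counts of mgn00215. Antisense to mgn00215 the log2 fold change was 0.51, which was not called. Antisense CPM are scaled to the antisense counts of a library, so their levels cannot be set beside sense CPM. The files name no strand of a gene.

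CG8193, which encodes the prophenoloxidase PPO2 of crystal cells, was near absent in G3. It had 0.0983 and 0 CPM in G3 against 10.4 and 10.3 CPM in B2, that is, 1 count against 136. The ratio of B2 to G3 was 158 with an exact 95% interval of 27.9 to 6300, which covers counting error only. S2 had 6.14 and 5.46 CPM, and A7 was higher than any other line, at 43.0 and 28.4 CPM. Its neighbour on 2R, CG13743, had 0.590 and 0.388 CPM in G3 against 6.36 and 6.42 CPM in B2 and again was highest in A7, at 24.0 and 26.1 CPM. Both passed without the replicate block.

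The zinc finger transcription factor gene sqz, which specifies neuronal identity in the embryo, had 1.67 and 1.55 CPM in G3 and 34.5 and 26.5 CPM in B2 (log2 fold change -4.29, SE 0.21, adjusted p = 3.86e-05). CG7791 on 2R had 44.3 and 40.4 CPM in G3 and 529 and 395 CPM in B2 (log2 fold change -3.44, SE 0.12, adjusted p = 5.78e-06). Ir41a, an ionotropic receptor gene of 2R whose listed extent is 837172-909460, had 20.5 and 5.43 CPM in G3 and 261 and 292 CPM in B2, a log2 fold change of -4.37 (SE 0.40, adjusted p = 0.000908). For these genes A7 and S2 lay on the side of B2, and G3 alone was low. CG6357, a cysteine protease family gene, had 3 counts in G3 and 116 in B2, a ratio of 45.0 (exact 95% interval 15.0 to 221). CG4174, which contains several smaller listed genes, had 1.87 and 1.16 CPM in G3 against 25.7 and 22.7 CPM in B2, but S2 was low as well, at 3.24 and 0 CPM. The difference at CG4174 therefore lay with B2.

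Parental S2 was used to place the other called genes in the same way. At 326 of the 370 called genes (88.1%) the mean of S2 lay nearer to B2 than to G3 on the log2 CPM scale, against 59.8% of all genes tested. This held for 170 of the 187 higher genes and 156 of the 183 lower genes. A7, which shares its guide target with G3, lay nearer to G3 at 55.4% of the 370, against 52.6% of all genes tested. It was nearer to G3 at 113 of the higher genes and at 92 of the lower genes. In the same fit 287 genes were called between G3 and A7 (2.99%) and 375 between A7 and B2 (3.90%). These contrasts share libraries, and the differences between their counts were not tested. Against S2 itself 562 genes were called for G3 and 41 for B2, again with the S2 libraries in common.

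The share of genes called was 3.02% on 2L, 4.47% on 2R, 3.07% on 3L and 2.31% on 3R, against 3.85% of all genes tested, and differences between arms were not tested. On the X, 101 of 1557 genes were called (6.49%), 48 higher and 53 lower in G3, and the median log2 fold change of the arm was 0.02. Of the lower calls, 41 lay in a stretch of 1850 kb from CG7889 to unc (X:19137636-20987884, dm3), where 46 of 123 genes were called and 102 were below 0. Its median was -0.57, with -0.51 and -0.57 in replicates 1 and 2. Against S2 the median of the stretch was -0.51 for G3 and 0.05 for B2, and between G3 and A7 it was -0.16. The number of calls fell to 2 without the replicate block, to 19 and 15 without replicate 1 or 2 of G3 and to 1 and 2 without replicate 1 or 2 of B2, whereas the median was -0.57 without the block and stayed between -0.58 and -0.48 without any of the 4 libraries.

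The genes that fell in the X stretch included regulators used in many cell types. Cdc42, the small GTPase of cell polarity, had 65.8 and 67.9 CPM in G3 and 120 and 119 CPM in B2 (log2 fold change -0.84, SE 0.13, adjusted p = 0.01). The gene of the cytokine receptor of JAK/STAT signalling, dome, had 62.5 and 47.8 CPM in G3 and 107 and 82.8 CPM in B2 (-0.78, SE 0.14). Tak1, the kinase gene of the IMD immune pathway, had 85.2 and 88.1 CPM against 137 and 140 CPM (-0.67, SE 0.12). The libraries of the clones did not overlap at any of these genes. The ribosomal protein gene RpS10b, the exportin gene Ranbp21 and the cytochrome P450 gene Cyp6v1 also lie here, with log2 fold changes of -0.94, -0.57 and -0.88. Against this trend kek5, out, CG8034, Cbs and bves were called higher in G3. The gene out had 17.2 and 10.1 CPM in G3 and 1.65 and 1.07 CPM in B2.

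On 2R the stretch from Rpt1 to CG17977 (2R:3539113-3955236, dm3) had 15 of 56 genes called (26.8%, against 3.85% of all genes tested), 13 of them lower. Of the 56, 52 were below 0, and the median was -0.50. It contains sax, a type I receptor gene for BMP ligands, which had 39.2 and 42.5 CPM in G3 and 68.2 and 66.9 CPM in B2 (-0.73, SE 0.11, adjusted p = 0.0117). The median against S2 was -0.55 for G3 and -0.07 for B2. Unlike the X stretch, A7 did not follow G3 here, and the median of G3 against A7 was -0.47. No test of the difference between the stretches was made. CG30497 and cn, the kynurenine hydroxylase gene of eye pigment, were higher in G3 within it. Other stretches of 2R were also lower in G3, among them CG17266 to CheB42b (2R:2562533-2831491) and CG4610 to jbug (2R:18379702-18627969). The median of the stretch from Rpt1 to CG17977 without the block or without a library was not computed. Within it, the 9 lower calls from CanB2 to CG12822, sax among them, were all lost without the replicate block (edgeR adjusted p = 0.0952 for sax). The calls of CG30497 and cn were lost as well. All these stretches were found from the running medians of these data and are given as descriptions, and the copy number of any region was not measured here.

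**Figure D3:**
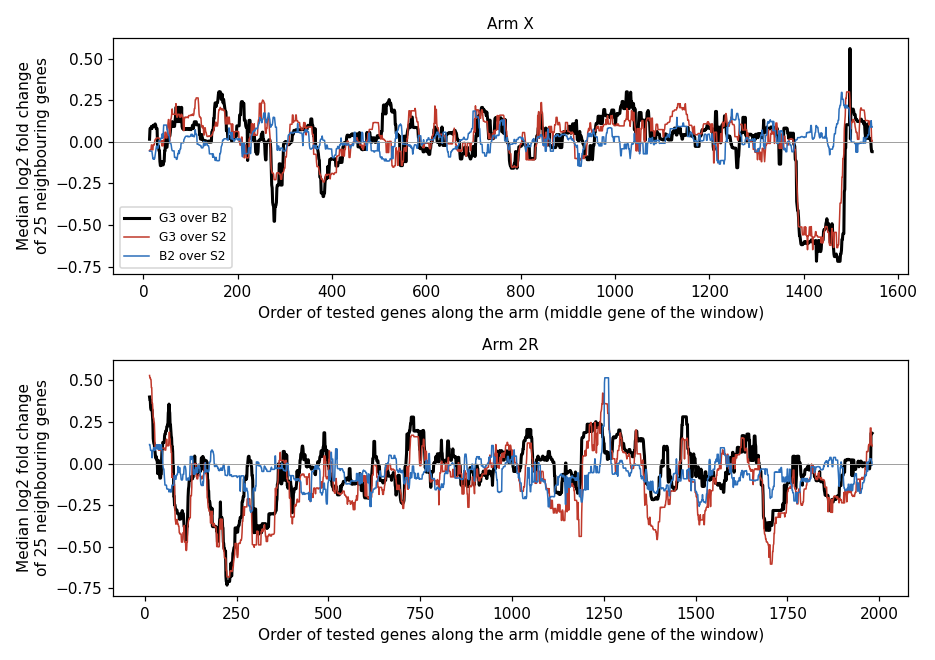
Median log2 fold change of 25 neighbouring tested genes along arms X and 2R, by gene order, for G3 over B2 (black), G3 over S2 (red) and B2 over S2 (blue). The black and red lines fall together near the right end of X, to a lowest value of -0.72, and near gene 250 of 2R, to -0.73, while the blue line stays near 0 at those places.

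Of 70 tested genes of the assembled heterochromatic arms, 14 were called (20.0%, against 3.85% of all genes tested), 13 higher and 1 lower, 52 were above 0, and the median log2 fold change was 0.37 against -0.01 over all genes tested. The calls came from 2RHet (6 genes), 3LHet (3), XHet (4) and 3RHet (1), the last being the lower gene. None was called on 2LHet, where 1 of 6 genes was above 0 and the median was -0.26. MFS17, a solute carrier family gene of 2RHet chosen after its values were seen, had 1270 and 1155 CPM in G3 and 367 and 449 CPM in B2 (log2 fold change 1.58, SE 0.12, adjusted p = 0.000398). A7 had 1050 and 1246 CPM of it, near G3. The cohesin subunit gene vtd in 3LHet had 630 and 703 CPM against 485 and 507 CPM (0.42, SE 0.10, adjusted p = 0.0488). On XHet 8 of 9 genes were above 0, with a median of 0.78. Over the assembled heterochromatic arms the calls fell to 2 without the replicate block, to 5 without replicate 1 of G3 and to 3 and 4 without replicate 1 or 2 of B2, whereas the median was 0.36 without the block and 0.46 to 0.51 without any 1 library.

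Values next to the centromere are given arm by arm, and differences between arms were not tested. In the 1 Mb at the centromere end of 2R 8 of 21 genes were called, 7 higher and 1 lower (Ir41a), and the median was 0.40. On 3L all 12 genes were above 0, with a median of 0.42 and 1 called. On 2L the median was -0.37 over 33 genes with 2 called, on 3R it was -0.08 over 73 genes with 1 called, and on X it was 0.02 over 32 genes with 1 called. With 2 Mb the medians were 0.18 on 2R, 0.28 on 3L, -0.16 on 2L, -0.10 on 3R and 0.02 on X. The heterochromatin-rich chromosome 4 had 3 of 85 genes called (3.53%, near the 3.85% of all genes tested), all lower, with a median of 0.02. Caps, a gene for a calcium-dependent activator of secretion, had 4.32 and 5.05 CPM in G3 and 13.3 and 21.6 CPM in B2, while S2 had 58.2 and 72.1 CPM. None of the 23 tested genes for heterochromatin proteins and H3K9 methylation was called by the edgeR fit over all 8 libraries or by DESeq2, and 2 had an unadjusted p under 0.05. With no filter beyond 1 count, with the G3 and B2 libraries alone and the block, or without replicate 1 of G3, edgeR called 1 of them, lower in G3. Of these 23, Parp had the highest mean CPM, with 2434 and 2381 CPM in G3 and 1923 and 2461 CPM in B2, which overlapped.

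Median fold changes were larger for longer genes. The median log2 fold change was 0.38 for the 265 genes of 50 kb or more, 0.25 for the 683 genes of 20 to 50 kb and 0.11 for the 827 genes of 10 to 20 kb, against -0.06 for the 3013 genes of 2 to 5 kb. The medians at 50 kb or more were 0.39 and 0.29 in replicates 1 and 2. In the longest class 43 genes were called (16.2%, against 3.85% of all genes tested), 34 higher and 9 lower. At 20 to 50 kb 9.22% were called, and at 2 to 5 kb 3.39%. Without the replicate block 3 were called, with a median of 0.37, and 31 and 25 were called without replicate 1 or 2 of G3. Without replicate 1 of B2 the median of this class was 0.18, with 5 called, and without replicate 2 of B2 it was 0.49, with 7 called. Against S2 it was 0.04 for G3 and -0.09 for B2. Of the called genes, the higher ones had a median listed length of 14.4 kb and the lower ones 4.501 kb, and the median of all genes tested was 2.79 kb. Longer genes also collect more counts at a given rate, and its part in these counts was not tested.

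**Figure D4:**
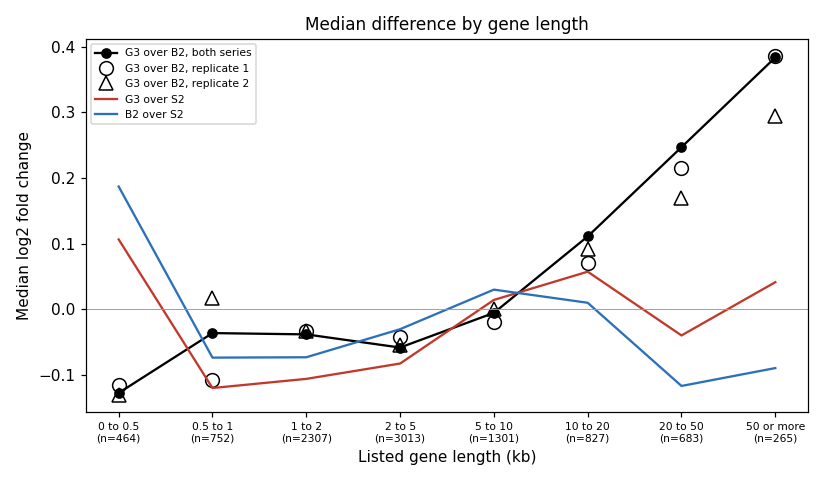
Median log2 fold change by listed gene length for G3 over B2 (black line), for each replicate (open circle and triangle), for G3 over S2 (red) and for B2 over S2 (blue), with the number of genes under each class. The black line rises from -0.06 at 2 to 5 kb to 0.38 at 50 kb or more, and the S2 contrasts stay between -0.12 and 0.19.

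The gene lists were read against the 3.85% of all genes called. Axon guidance and neuronal adhesion genes gave 5 calls of 33, all higher in G3, with a median of 0.16. Nrg, the L1-type adhesion molecule, had 163 and 117 CPM in G3 and 30.5 and 18.2 CPM in B2 (log2 fold change 2.55, SE 0.21, adjusted p = 0.000539). The Robo family receptor gene lea had 1720 and 1335 CPM in G3 and 722 and 474 CPM in B2 (1.36, SE 0.14, adjusted p = 0.00195). The ligand of these receptors, sli, was higher by 0.55, and Sema-1a, a transmembrane semaphorin, and fra, the netrin receptor, by 0.99 and 0.78. None of these genes was called without the replicate block, and 2 and 3 were without replicate 1 or 2 of B2, all higher in G3. Of 26 ion channel and neurotransmitter receptor genes 22 were above 0 with a median of 0.42, which was 0.97 and 0.23 without replicate 1 or 2 of G3, 0.70 without replicate 2 of B2 and 0.15 over the 11 genes with at least 5 CPM. Of them nAcRbeta-96A was called higher, with at most 5.60 CPM in G3, and the calcium release channel gene Itp-r83A lower. Neither was called without the replicate block. Many genes of these lists are long, and neuron markers summed to 94.9 and 86.2 CPM in G3 and 64.5 and 56.0 CPM in B2. The part of either in the counts was not tested.

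Of 16 homeotic and segmentation transcription factor genes 13 were above 0, with a median of 0.74, and 3 were called. The median rested on replicate 1 of B2, without which it was 0.0025 with 8 of the 16 above 0. It was 1.17 without replicate 2 of B2, and 0.37 over the 7 genes with at least 5 CPM. Besides tsh, the TALE homeobox gene hth was higher, with 209 and 24.3 CPM in G3 and 102 and 7.27 CPM in B2 (log2 fold change 1.21, edgeR adjusted p = 0.0466). Its libraries overlapped between the clones, and without the replicate block it was not called (edgeR adjusted p = 0.940). The LIM homeobox gene ap was lower, with 1397 and 1312 CPM in G3 and 3137 and 2907 CPM in B2 (-1.16, SE 0.10, adjusted p = 0.0008). S2 lay between the clones, with 2169 and 2059 CPM of ap. Against S2, G3 was called lower (log2 fold change -0.64, edgeR adjusted p = 0.00989) and B2 was not called (0.51, edgeR adjusted p = 0.111). Antisense to ap the log2 difference was larger (-5.44), with 246 and 135 antisense CPM in G3 and 8490 and 8279 in B2. These are scaled to antisense counts, so their levels are not comparable with the sense CPM of ap.

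Matrix and integrin genes split. Of 20 tested, 6 were called (30.0%), 2 higher and 4 lower, with a median of -0.04. The perlecan gene trol had 236 and 289 CPM in G3 and 66.7 and 67.6 CPM in B2 (log2 fold change 1.94, SE 0.42, adjusted p = 0.0396), and the glypican gene dlp 79.6 and 51.6 CPM against 27.2 and 29.9 CPM (1.21, SE 0.19, adjusted p = 0.0122). Lower in G3 were the integrin genes mew and betaInt-nu (-0.79 and -2.03), the matrix protein gene Tig (-0.70) and the metalloproteinase gene Mmp2 (-0.64). For betaInt-nu the libraries overlapped, with 4.62 and 2.52 CPM in G3 and 27.0 and 2.78 CPM in B2. None of the matrix and integrin genes was called without the replicate block or without replicate 1 of B2, 1 was without replicate 2 of B2, and the median moved to 0.25 without replicate 1 of G3. Of 12 hemocyte identity and phagocytosis genes only the scavenger receptor gene crq was called, lower in G3 (37.4 and 58.2 CPM against 59.7 and 81.3 CPM, edgeR adjusted p = 0.0304). It was not called without the replicate block.

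Of 25 receptor tyrosine kinase ligand, receptor and feedback genes 4 were called, 3 higher, Alk among them, and 1 lower. Pvf1, a ligand of the PVR receptor, had 10.2 and 26.0 CPM in G3 and 2.00 and 8.77 CPM in B2 (log2 fold change 1.86). The FGF gene bnl had 144 and 188 CPM against 105 and 73.1 CPM (0.92), and A7 exceeded both, at 367 and 300 CPM. The EGF receptor antagonist gene aos was lower, with 66.7 and 65.2 CPM in G3 against 369 and 151 CPM in B2 (-1.79, SE 0.34, adjusted p = 0.0242). In the immune pathways 2 of 23 genes were called. Dif, the NF-kappaB factor of the Toll pathway, had 114 and 110 CPM in G3 and 45.2 and 35.1 CPM in B2 (1.47, SE 0.16, adjusted p = 0.00213), and Tak1 was lower as given above. Among ecdysone response genes br (1112 and 625 CPM against 595 and 152 CPM) and Eip63E were higher, by 1.44 and 0.69, and the cell death gene W, which encodes the IAP antagonist Hid, was higher by 1.15. Of Wnt, Hedgehog and BMP genes, fz3 and nkd were higher, by 1.22 and 0.64, and sax was lower. In the Notch list numb, the inhibitor of Notch in asymmetric division, was higher by 0.58. The libraries of the clones overlapped at nkd (174 and 83.3 CPM in G3, 121 and 48.3 CPM in B2). They also overlapped at numb (203 and 310 CPM in G3, 128 and 218 CPM in B2). The calls numbered 2 of 19 ecdysone genes, 1 of 13 cell death genes, 3 of 29 Wnt, Hedgehog and BMP genes, 1 of 16 Notch genes and 1 of 9 JAK/STAT genes, the last being dome. Without the replicate block no gene of these lists was called, and of the immune genes only Dif was. None of the receptor tyrosine kinase genes was called without the replicate block or without replicate 1 or 2 of B2. None of 4 tested antimicrobial peptide genes was called by edgeR or by DESeq2, and none had an unadjusted p under 0.05. The cecropin gene CecB had 7.57 and 0.582 CPM in G3 and 6.01 and 0.214 CPM in B2, so that the replicate series differed more than the clones.

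Heat shock protein genes gave 5 calls of 19, all lower in G3, with 2 above 0 and a median of -0.39. Hsp22 and Hsp67Bb overlap and hold the same counts, so the calls stand for 4 loci. Hsp68, an inducible member of the Hsp70 family, had 436 and 146 CPM in G3 and 850 and 218 CPM in B2 (log2 fold change -0.78, SE 0.12, adjusted p = 0.0104). Replicate 1 was higher than replicate 2 in all 4 lines for this gene, and S2 (473 and 126 CPM) stood near G3. Hsp26 showed the same order, with 297 and 80.9 CPM in G3 and 542 and 118 CPM in B2. The endoplasmic reticulum chaperone gene Hsc70-3 had 923 and 883 CPM against 1449 and 1338 CPM (-0.63). None of the heat shock genes was called without the replicate block, without replicate 1 of G3 or without replicate 1 or 2 of B2.

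Cytoplasmic ribosomal protein genes were above 0 for 7 of 86, with a median of -0.32, but 4 were called (4.65%, near the share of all genes). These were RpS10b in the X stretch, RpL10Ab, RpL22 and RpS16, with log2 fold changes of -0.51 to -0.94 (RpS16 -0.51, RpS10b -0.94). The median moved to -0.09 without replicate 2 of G3 and to -0.49 without replicate 1 of G3, and 0 were called without replicate 1 or 2 of B2. None of 72 mitochondrial ribosomal protein genes was called by the edgeR fit over all 8 libraries or by DESeq2, nor any of 37 cell cycle and DNA replication genes, and 1 and 3 of them had an unadjusted p under 0.05. On the G3 and B2 libraries alone with the block, edgeR called 2 of the 37, 1 higher and 1 lower. Of the first list mRpS9 had 113 and 90.8 CPM in G3 and 114 and 110 CPM in B2, and of the second the cell cycle transcription factor gene E2f had 1130 and 1247 CPM against 1361 and 1419 CPM (log2 fold change -0.23, SE 0.11, edgeR adjusted p = 0.357). Of 12 glycolysis genes 10 were above 0, and Gapdh2 (40.3 and 42.9 CPM against 22.97 and 25.9 CPM) and Pgk were called, higher by 0.77 and 0.60. In this list S2 and A7 stood with G3 at both called genes. Of 26 actin cytoskeleton and adhesion genes 2 were called, both lower, and of 10 small RNA pathway genes only Ranbp21, also lower, with Cdc42 and Ranbp21 both in the X stretch. The other actin cytoskeleton gene, Act5C, was lower in G3, at 514 and 1034 CPM against 1078 and 1558 CPM (-0.83, SE 0.12, edgeR adjusted p = 0.01). Without the replicate block no gene of the lists in this paragraph was called.

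**Figure D5:**
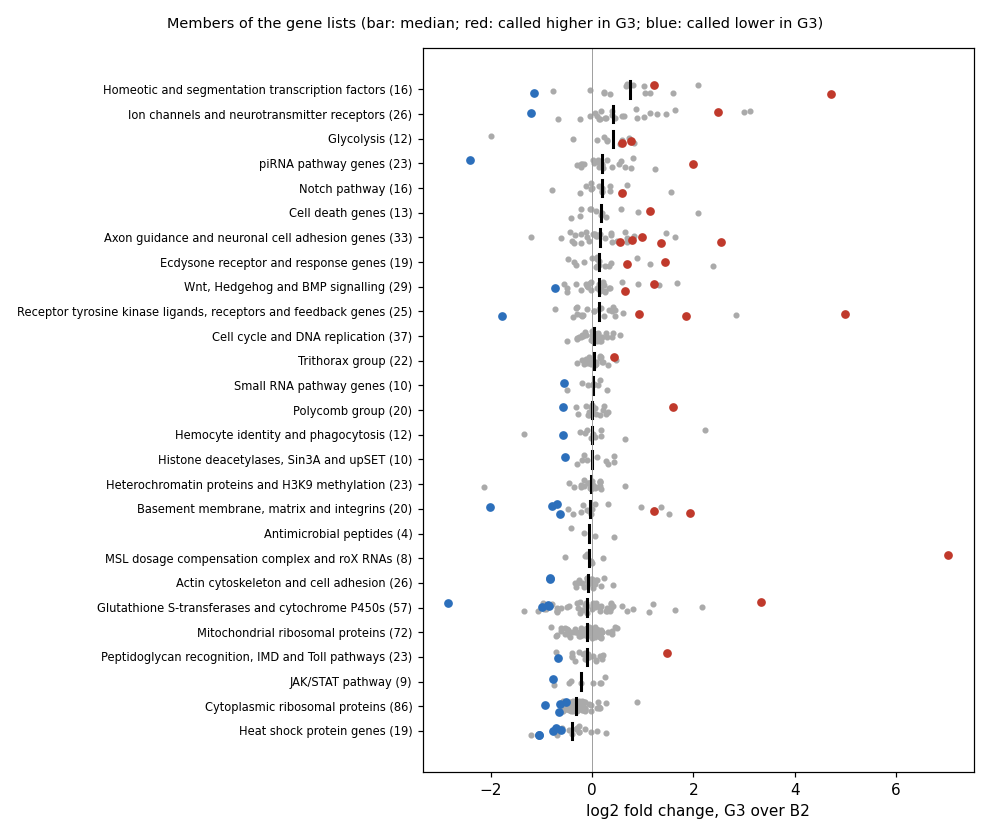
Log2 fold change of G3 over B2 for the tested members of each of 27 gene lists, with the median as a bar, genes called higher in red and genes called lower in blue. Heat shock and cytoplasmic ribosomal protein genes have the lowest medians (-0.39 and -0.32), and homeotic and segmentation transcription factor genes the highest (0.74, but 0.0025 without replicate 1 of B2).

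The chromatin regulator lists were also read against the 3.85% of all genes called. Of 20 Polycomb group genes 2 were (10.0%), of which ph-p was higher (10.8 and 14.8 CPM in G3, 4.71 and 3.42 CPM in B2, log2 fold change 1.59, adjusted p = 0.0248) and jing, a zinc finger gene of that list, lower by 0.58 (log2 fold change -0.58). Of 22 Trithorax group genes only vtd was called (4.55%), and of the other histone deacetylase and Sin3A genes none was called in this fit, with Rpd3, Sin3A and Sir2 at an unadjusted p under 0.05 (log2 fold changes of 0.44, 0.28 and 0.31). Over that list, CG9007 included, DESeq2 also called 1 gene, lower in G3, and edgeR on the G3 and B2 libraries alone with the block called 1 higher and 1 lower. In the piRNA pathway the sense counts of the Tudor domain genes SoYb and BoYb moved in opposite directions. At BoYb the antisense log2 fold change was larger, at 4.76. There G3 had 976 and 225 antisense CPM (scaled to antisense counts) and B2 had 13.7 and 34.9. SoYb had 2.85 and 3.88 CPM in G3 and 15.8 and 20.3 CPM in B2 (-2.42, SE 0.17, adjusted p = 0.000297), and BoYb 11.4 and 14.9 CPM against 2.71 and 4.06 CPM (1.98, SE 0.42, adjusted p = 0.0384). Against S2, at 37.1 and 57.6 CPM, SoYb was low in both clones. Of 57 glutathione S-transferase and cytochrome P450 genes 5 were called, with Cyp12c1 higher (10.1 and 13.8 CPM against 1.77 and 0.214 CPM) and Cyp6a8, Cyp4e2, Cyp6v1 and GstD1 lower. Without the replicate block no gene of the lists in this paragraph was called.

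Counts on the antisense strand gave a second readout of the same libraries. Of 12610 genes tested on antisense counts, 214 were called (1.70%), 98 higher and 116 lower in G3, by the same edgeR test with CPM taken over antisense totals. With library size as the only scaling the split was 167 higher and 104 lower of 271, and with the sense library sizes and factors it was 172 and 101, so the balance of directions depended on the scaling. That scaling moved the median of all antisense log2 fold changes from 0.07 to 0.21 and 0.24. Without the replicate block 49 were called, and DESeq2 called 115. Of 8958 genes tested on both strands, 359 were sense calls, and 32 of these were also called antisense, beside 1.70% of all genes tested antisense. Of the 32, 25 went in the same direction and 7 in opposite directions.

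The largest antisense differences were close to all or nothing. Antisense to CG2121 on 2R, G3 had 1356 and 2489 antisense CPM and B2 had 5.27 and 0, that is, 2989 counts against 5, while S2 and A7 had at most 6.16 antisense CPM. The sense strand of CG2121 was not called (adjusted p = 0.191). Antisense to z, the zeste transcription factor gene that lies within boi, G3 had 1555 and 723 antisense CPM and B2 had 5.27 and 7.49. A7 had 2640 and 1960 antisense CPM there. The direction was that of the sense counts of boi. Since z lies within boi, the same reads may enter both counts, so z adds no separate support. The sharing of reads was not tested. At CG6845 the antisense counts were 0 in G3 and 41 in B2, at least 16.2-fold lower in G3 when set against 3 counts over its libraries.

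A group of neighbours on 2L had few reads of either strand in G3. Antisense to ppk13, a sodium channel family gene, G3 had 0 counts and B2 had 154 and 210 antisense CPM (230 counts), at least 90.7-fold lower in G3 when set against 3 counts. CG33509 next to it had 1 antisense count in G3 and 416 in B2, a ratio of 492 (exact 95% interval 87.9 to 19493 for counting error), and S2 and A7 had 159 to 327 antisense CPM. On the sense strand CG33509 had 0.590 and 0.388 CPM in G3 and 8.84 and 8.98 CPM in B2 (log2 fold change -4.04), and CG33511 had 0.590 and 0 CPM against 5.18 and 6.84 CPM. Between betaInt-nu and bur (2L:21053022-21178432, dm3) 7 genes were called lower on the sense strand, yet 8 of the 30 tested there were above 0.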

How the data were processed

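Chromatin-bound RNA of S2 cells and 3 mutant clones was sequenced with a strand-specific kit, 2 libraries per line. Per the study's methods and processing notes, the authors trimmed reads with Cutadapt, aligned them with Bowtie 0.12.7 to dm3 keeping unique alignments, and deposited counts per gene for the sense and antisense strand. The counting program is not given in the sources used here. Unique alignment removes reads of repeats and identical copies, which bears most on heterochromatin.

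Counts were used as deposited. Genes with at least 1 CPM in at least 2 of the 8 libraries were fitted in edgeR 4.0.16 (R 4.3.3) with TMM factors and the quasi-likelihood test, with line and replicate number as terms, and the contrast G3 minus B2 was taken. Benjamini-Hochberg adjustment ran over all genes tested, with calls at adjusted p under 0.05. SE is the fitted contrast divided by the root of the F statistic. Each line had 2 sense columns, and the one not marked replicate 1 was taken as replicate 2. Same-numbered libraries deviated together (correlation 0.50 to 0.63 over the 6 pairs of lines), which pairs them by the data and not by the labels. Nothing says that replicates were separate cultures, so p-values measure only the spread between these libraries, which may be technical. Intervals and bounds cover counting error only.

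Named genes were CG9007, the MSL and roX genes, the 10 highest and 10 lowest called genes with the same sign in both series and at least 5 CPM in G3 or B2 (of overlapping genes, the one with more counts), the 5 lowest adjusted p, up to 4 called members of each of 27 lists or, with none called, the member with the most CPM, and the 5 largest antisense differences. Genes named outside this rule were chosen after their values were seen, as were the running windows (25 genes, median past 0.4) and length classes. The comparison, lists and members were chosen with earlier results of these data known. Alternatives were no replicate block, other scalings, filters and fits, DESeq2 1.42.0 and leaving out each library. Of the tested gene names, 8527 matched the RefSeq table used for current symbols.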

Additional observations from a re-analysis of the deposited data

How the results depend on the processing

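The replicate block decided the number of calls. Without the replicate block 23 genes were called (11 higher, 12 lower), and with G3 and B2 alone and no block 22 (14 and 8), whereas G3 and B2 alone with the block gave 969 (496 and 473). All 370 calls kept their direction under all alternatives in which they were tested. With no filter beyond 1 count 670 were called (326 and 344). Other scalings, DESeq2 (388, of which 214 higher and 174 lower), a minimum of 5 CPM (383) and robust estimation (384) stayed within 1.5 times of 370. Leaving out 1 library gave 35 to 202 calls, 20 to 136 higher and 15 to 91 lower. A clone left with 1 library is assumed to vary like the other lines.

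Antisense calls were 49 without the block, 115 with DESeq2 and 100 to 115 without 1 library. Without the block 20 genes were called between G3 and A7 and 28 between A7 and B2. The median of the heterochromatin groups together (assembled heterochromatic arms, chromosome 4 and 1 Mb next to the centromeres), 0.040, was 0.12 with no centromere stretch and 0.012 with 2 Mb, and 0.044 to 0.078 without 1 library. For autosomal euchromatin the median, -0.021, was -0.039 with library size alone and -0.0042 to 0.030 without 1 library, and for X euchromatin, 0.016, it was -0.0020 with library size alone and 0.030 to 0.068 without 1 library. These medians are small beside the spread of single genes. Depth limits genes near 3 counts, and 2 libraries per clone limit every call.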
